A study of Homo sapiens with 6 samples.

Results

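The genes described here are 39 targets and partners of ATF4, the transcription factor of the integrated stress response, chosen by name from the 58735 genes of the deposited tables. All 39 names had 1 row each. They were set in 5 roles: 11 genes of amino acid and one-carbon synthesis, 6 amino acid transporters, 8 genes of tRNA charging and export, 11 regulators, and 3 genes of secreted or surface proteins. RNA was sequenced from MDA-MB-231, an established line of mesenchymal, triple-negative breast cancer cells, labelled wild type in both groups. All cells carried the membrane dye PKH26, which is diluted at each division, and were grown for 12 days after staining. Slow-cycling cells (SCC, 3 libraries) were the brightest 1% in the sort. Rapid-cycling cells (RCC, 3 libraries) had moderate dye by the protocol and low dye by the sample characteristics. The model is a single cell line, and the labels call the libraries of a group biological replicates without naming separate cultures, so p-values measure the spread between these libraries only.

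In the integrated stress response, kinases that sense unfolded protein, amino acid shortage, viral RNA or heme shortage phosphorylate the initiation factor eIF2. General translation then slows while the ATF4 message is translated more, because upstream reading frames in its leader hold it back in unstressed cells. ATF4 pairs with C/EBP proteins on composite promoter elements and switches on genes for amino acid supply, tRNA charging and redox balance, together with feedback genes that restore translation or dampen growth signalling. ATF4 activity is therefore set largely at the protein level, which RNA-seq does not measure. In bulk libraries such as these, fewer cells of a kind and less RNA per cell cannot be told apart.

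Markers of the cell line were checked in every library. The mesenchymal line markers VIM and CD44, seen in such breast cancer lines, were at 759 to 835 CPM in SCC and 752 to 799 in RCC, and at 347 to 367 CPM in SCC and 336 to 361 in RCC, respectively. Of the 6 line markers listed, 0 were called. AXL and EGFR overlapped too, but S100A4 and LGALS1 were higher in all SCC libraries than in all RCC libraries. S100A4 was at 47.3 to 55.9 CPM in SCC and 37.9 to 41.7 in RCC (edgeR adjusted p 0.0507) and was called in 5 of 16 alternatives. ESR1, the oestrogen receptor, was at 0.285 to 0.408 CPM in SCC and 0.239 to 0.696 in RCC, PGR at 0 to 0.13 and CDH1 at 0 to 0.435 CPM over all libraries. Of the other genes listed as low in such lines, EPCAM was at 3.83 to 4.90 CPM in SCC and 3.61 to 5.73 in RCC, and ERBB2 was not low, at 71.3 to 106 CPM in SCC and 73.5 to 76.2 in RCC. The defining marker of leukocytes, PTPRC, was at 0.256 to 1.97 CPM in SCC and 0.143 to 0.559 in RCC, highest in SCC replicate 1. The 8 markers of other cell types reached a summed level of 5.57 to 8.01 CPM in SCC and 5.02 to 7.44 CPM in RCC, with ALB at 0 in every library. PECAM1 and MYH11 were detected in every library. PECAM1 was at 2.70 to 3.22 CPM in SCC and 2.13 to 3.24 in RCC, and MYH11 at 2.05 to 2.97 and 1.72 to 3.41. Summed counts were 19498054 to 27831824 in SCC and 17655855 to 22746267 in RCC, so levels under 10 CPM (counts scaled to library size) in genes such as CHAC1, SLC1A4 and DDIT3 rested on 73 to 230 counts per library. SCC replicate 1 stood apart by GC content: its median log2 deviation from the mean of 6 libraries was -0.24 in the GC-poorest decile of genes and 0.41 in the richest, against -0.16 to 0.10 in the other libraries.

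Of the 39 genes, 38 passed the filter on low counts and 8 were called higher in SCC, and 0 were called lower, with edgeR's quasi-likelihood test and a Benjamini-Hochberg adjusted p under 0.05. Over all 15881 tested genes the same rule called 1.69% higher and 0.378% lower. The 8 genes were PPP1R15A, SESN2, DDIT4, GDF15, CHAC1, SLC1A4, SLC3A2 and ATF4 itself. They comprised 5 of the 11 regulators, 2 of the 6 transporters and 1 of the 3 secreted or surface proteins. Among the genes of synthesis and of tRNA charging, 0 of 10 tested and 0 of 8 were called. Without adjustment, 14 of the 38 genes had higher levels at edgeR's p under 0.05 and 1 a lower level, against 11.4% and 8.27% of all tested genes. By DESeq2 9 genes were called higher, the 8 and CEBPB, and 0 lower, against 2.51% and 0.766% of its 15668 genes with an adjusted p. The median log2 fold change of SCC over RCC was 0.14 for the 38 genes and 0.0029 for all tested genes. For the 38 genes it was 0.08 without SCC replicate 1, 0.22 without SCC replicate 2 and 0.09 with an offset for GC content. In 20 of the 38 genes all SCC libraries lay above all RCC libraries, and in 2 all lay below. Over all tested genes these shares were 14.4% and 13.4%. The counts for the 38 genes were 20 and 2 under RLE scaling, 17 and 3 under upper-quartile scaling, and 19 and 2 by deposited FPKM. Shares over all tested genes were not taken under these scalings.

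**Figure D1:**
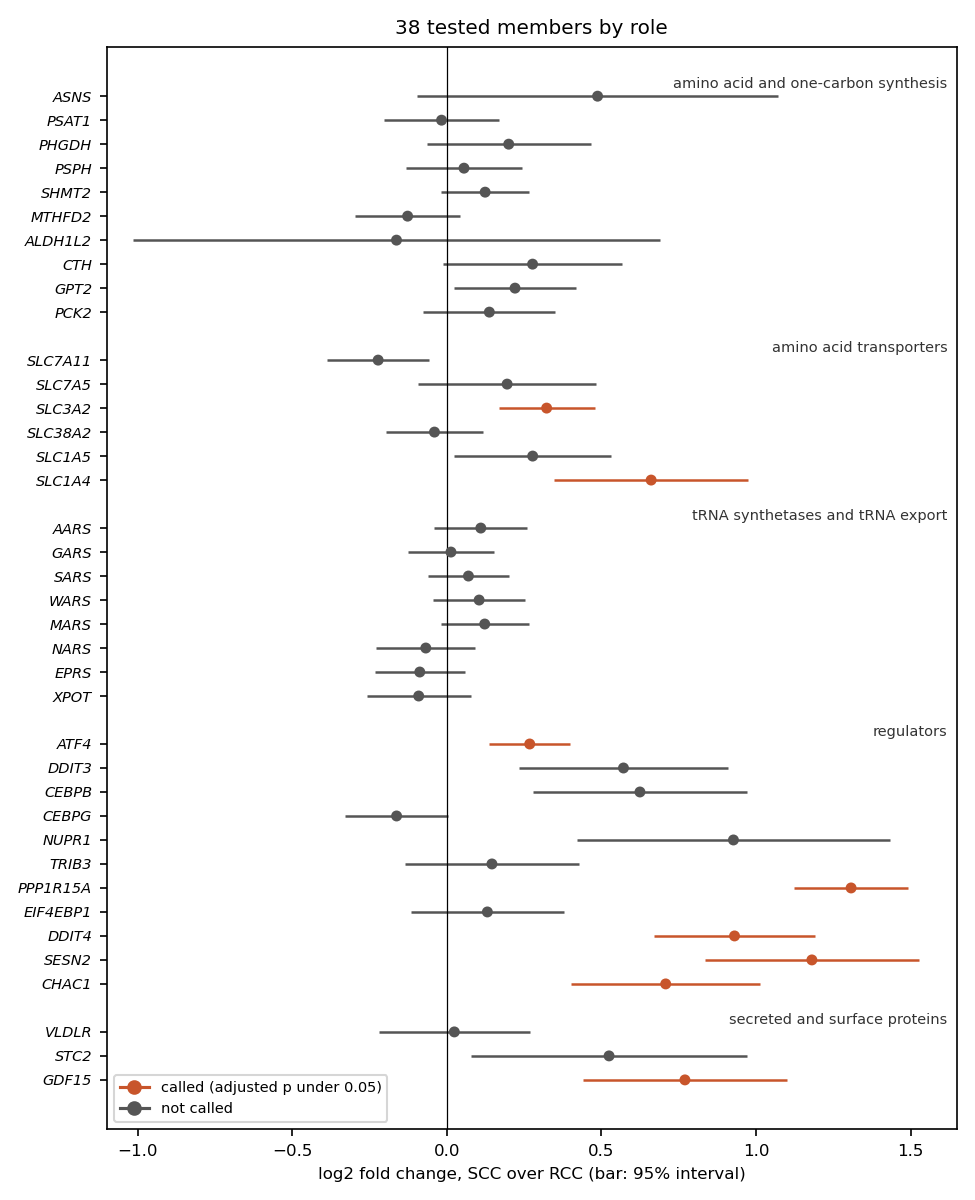
Log2 fold change of SCC over RCC (horizontal axis) for the 38 tested genes, grouped by role. Points are fitted values from 3 SCC and 3 RCC libraries, bars are 95% intervals, and orange marks the 8 called genes; regulators reach 1.31, while the fitted values for tRNA charging and export lie between -0.09 and 0.12.

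The promoter elements in question are short, and the stretches below show the letters on which ATF4-type and AP-1-type factors are known to bind. Promoters were 300-base windows from RefSeq (build GRCh38.p14), 250 bases before to 50 after each RefSeq gene start, and 32 of the 39 genes had one. PSPH, SHMT2, ALDH1L2, SLC7A11, NUPR1, GPT2 and EIF4EBP1 had none. The core of the composite C/EBP-ATF element, TGATGNAA on either strand, was found in 6 of the 32 windows and in 3.67% of all 27305 windows of that length. Of the 8 called genes only CHAC1 and SLC3A2 held it, and 4 genes that were not called held it too. Each stretch is written 5′ to 3′ on the gene's strand, with the match in capitals.
CHAC1 (chr15:40953252-40953279, plus strand): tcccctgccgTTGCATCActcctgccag
SLC3A2 (chr11:62881726-62881748, plus strand): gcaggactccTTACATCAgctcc
ASNS (chr7:97872459-97872486, minus strand): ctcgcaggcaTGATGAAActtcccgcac
AARS (chr16:70289676-70289703, minus strand): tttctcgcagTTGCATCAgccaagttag
MARS (chr12:57488054-57488081, plus strand): ccggttccggTTGCATCAgcgagggatt
NARS (chr18:57621805-57621832, minus strand): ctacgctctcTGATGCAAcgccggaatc
In CHAC1, SLC3A2, AARS and MARS the capitals read as the reverse complement of the element. In SLC3A2 and NARS the match starts 37 and 14 bases past the RefSeq gene start, in MARS it begins 4 bases before it, and in the others it lies upstream of it. The gene bounds given with the values are those of GENCODE 29, whose starts differ: by them the AARS match lies before the gene, and the other 5 lie inside their genes.

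A further pair of elements was searched after the values were known, because the series is about AP-1. The AP-1 site TGANTCA was found on either strand in 2 of the 32 windows, against 7.76% of all windows, and the cyclic AMP response element TGACGTCA in 1 of 32, against 1.98%. The 3 elements shared no match.
SLC3A2, AP-1 site (chr11:62881652-62881678, plus strand): cgagggtgggTGACTCAgcgtcctcct
DDIT3, AP-1 site (chr12:57520739-57520764, minus strand): gcgcgcgcaTGACTCAcccacctcct
The window of PPP1R15A, the gene with the highest fold change, held the cyclic AMP response element and no other of the 3. The 250 bases before its RefSeq start (chr19:48872171-48872420, plus strand) show that element in capitals, 58 to 51 bases before that start. The last 29 of these bases lie inside the GENCODE gene, and the element is 29 to 22 bases before the GENCODE start.
PPP1R15A: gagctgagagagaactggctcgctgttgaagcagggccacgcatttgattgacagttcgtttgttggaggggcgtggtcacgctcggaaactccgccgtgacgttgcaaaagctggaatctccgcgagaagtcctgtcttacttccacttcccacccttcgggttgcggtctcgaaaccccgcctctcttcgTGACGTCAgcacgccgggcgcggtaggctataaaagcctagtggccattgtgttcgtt
These matches describe letters in a window and were not tested for binding.

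The regulators were the role with the highest fold changes: 10 of 11 fitted values were positive, with a median log2 fold change of 0.62. This median was 0.49 with the GC offset and 0.64 without SCC replicate 1. ATF4 (ENSG00000128272, chromosome 22, 39519695 to 39522685) was at 380.2, 365 and 382 CPM in SCC replicates 1 to 3 and 311, 315 and 310.5 CPM in RCC replicates 1 to 3. The SCC libraries all lay above the RCC libraries, by a narrow margin relative to the level. The fitted rise was 1.204-fold, or 0.27 ± 0.059 (standard error) on the log2 scale, and edgeR's adjusted p was 0.046. This call was close to its threshold: without SCC replicate 3 the adjusted p was 0.161, and without RCC replicates 1, 2 or 3 it was 0.234, 0.204 and 0.214. It was also lost under RLE scaling (0.050) and upper-quartile scaling (0.0583), with the replicate number as a block (0.0711) and in the 3 limma fits (0.0799 to 0.242), so that ATF4 was called in 6 of 16 alternatives. Per gene length ATF4 had the highest level of the 39 genes in both groups, at FPKM values of 148 ± 3.66 in SCC and 124 ± 1.77 in RCC (SD, n = 3).

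PPP1R15A (ENSG00000087074, chromosome 19, 48872392 to 48876057) encodes GADD34, the inducible subunit that brings protein phosphatase 1 to phosphorylated eIF2 and so ends the response. Its values were 281, 239 and 237 CPM in SCC replicates 1 to 3 and 106, 104 and 95.8 CPM in RCC replicates 1 to 3. Every SCC library was more than 2 times every RCC library, and SCC replicate 1 was the highest. The rise was 2.48-fold (1.31 ± 0.083 on the log2 scale, edgeR adjusted p 1.1e-05). PPP1R15A was the single gene of the 39 called in all 16 alternatives. PPP1R15B, its constitutive counterpart, was at 139.7 to 150.4 CPM in SCC and 128 to 138 in RCC without overlap and was not called (log2 fold change 0.14, adjusted p 0.272 by edgeR). It was called higher in 2 of 16 alternatives, the GC offset and the fit without SCC replicate 1, at a log2 fold change of up to 0.21 and an adjusted p down to 0.0117. The FPKM ratio of PPP1R15A to PPP1R15B was 3.40, 2.69 and 2.70 in SCC replicates 1 to 3 and 1.35, 1.28 and 1.27 in RCC replicates 1 to 3. The ratios of the groups did not overlap, with a two-sided exact permutation p of 0.1, the smallest that 3 against 3 libraries allow; this pair was chosen after its values were seen.

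SESN2 and DDIT4 both restrain the growth kinase mTORC1, SESN2 as a leucine sensor that acts on GATOR complexes and DDIT4, also called REDD1, through the TSC complex. SESN2 (ENSG00000130766, chromosome 1, 28259527 to 28282491) was at 21.5, 17.2 and 13.99 CPM in SCC replicates 1 to 3 and 8.26, 7.79 and 7.22 CPM in RCC replicates 1 to 3. DDIT4 (ENSG00000168209, chromosome 10, 72273920 to 72276036) was at 29.6, 22.4 and 24.5 CPM in SCC replicates 1 to 3 and 13.1, 13.95 and 13.1 CPM in RCC replicates 1 to 3. In both genes the groups did not overlap and SCC replicate 1 was the highest library. The fitted rise was 2.27-fold for SESN2 (1.18 ± 0.16 on the log2 scale, edgeR adjusted p 0.0023). For DDIT4 it was 1.91-fold (0.93 ± 0.12 on the log2 scale, edgeR adjusted p 0.0017). Leaving out SCC replicate 1 gave log2 fold changes of 1.00 and 0.81, and both genes were called in each of the 6 fits without 1 library. Their calls were lost in 1 alternative, limma on log2(FPKM + 1) with no filter (adjusted p 0.145 and 0.0742). An antisense gene, DDIT4-AS1, shares 41.2% of the exon bases of DDIT4 and had 0 counts in every library. Whether counting used strand is not given, so these 0 counts do not clear the values of DDIT4 of the overlap. EIF4EBP1, which encodes the translation repressor 4E-BP1 downstream of mTORC1, was at 51.6 to 73.4 CPM in SCC and 55.1 to 59.4 in RCC, with overlapping groups and no call (adjusted p 0.525 by edgeR).

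CHAC1 (ENSG00000128965, chromosome 15, 40952962 to 40956519), an enzyme that degrades glutathione, was at 7.20, 6.80 and 7.26 CPM in SCC replicates 1 to 3 and 4.39, 4.21 and 4.42 CPM in RCC replicates 1 to 3. Its replicates were tight and the groups did not overlap. The rise was 1.63-fold (0.71 ± 0.14 on the log2 scale, edgeR adjusted p 0.028). Its call was lost without SCC replicate 3 (adjusted p 0.0982), without RCC replicates 1, 2 or 3 (0.138, 0.129 and 0.104), and with an offset for GC content (0.0788). The call was also lost in limma on log2(FPKM + 1) with no filter.

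DDIT3 encodes CHOP, the partner of ATF4 that is tied to death under long stress. It was at 5.64, 6.80 and 6.17 CPM in SCC replicates 1 to 3 and 3.96, 4.44 and 4.08 CPM in RCC replicates 1 to 3, with no overlap between groups. Its log2 fold change of 0.57 missed the threshold (standard error 0.15, edgeR adjusted p 0.087), and the 95% interval ran from 0.23 to 0.91. DDIT3 was called higher in 2 of 16 alternatives, the GC offset and the fit without SCC replicate 1 (edgeR adjusted p down to 0.0292). DDIT3 shares 27.2% of its exon bases with MARS on the opposite strand, and per gene length DDIT3 was at 3.17 ± 0.214 FPKM and MARS at 21.2 ± 0.775 FPKM in RCC (SD, n = 3); whether counting used strand is not given in the sources used here. The values of DDIT3 are for that reason uncertain. NUPR1, a stress-induced chromatin protein, was low, at 2.56 to 3.56 CPM in SCC and 1.45 to 1.86 in RCC, and also not called (0.93 on the log2 scale, edgeR adjusted p 0.07). It was called higher in 3 of the 14 alternatives that tested it (edgeR adjusted p down to 0.015).

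CEBPB and CEBPG encode C/EBP partners of ATF4, and edgeR's test called neither, while DESeq2 called CEBPB higher (adjusted p 0.00314). CEBPB was at 74.0, 45.4 and 49.8 CPM in SCC replicates 1 to 3 and 34.2, 36.7 and 39.2 CPM in RCC replicates 1 to 3. The groups did not overlap, but SCC replicate 1 stood well above the others, and the log2 fold change of 0.62 missed the threshold (edgeR adjusted p 0.073). Without SCC replicate 1 it was smaller, 0.38, and called (adjusted p 0.00243), and in all CEBPB was called in 6 of 16 alternatives. CEBPG, whose product lacks an activation domain, was at 38.04 to 38.5 CPM in SCC and 41.2 to 44.6 in RCC, with all SCC libraries below all RCC libraries (-0.16 on the log2 scale, edgeR adjusted p 0.264). TRIB3, a pseudokinase that feeds back on ATF4 and CHOP, was at 19.4 to 25.8 CPM in SCC and 17.6 to 22.0 in RCC, with overlapping groups (adjusted p 0.531 by edgeR).

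**Figure D2:**
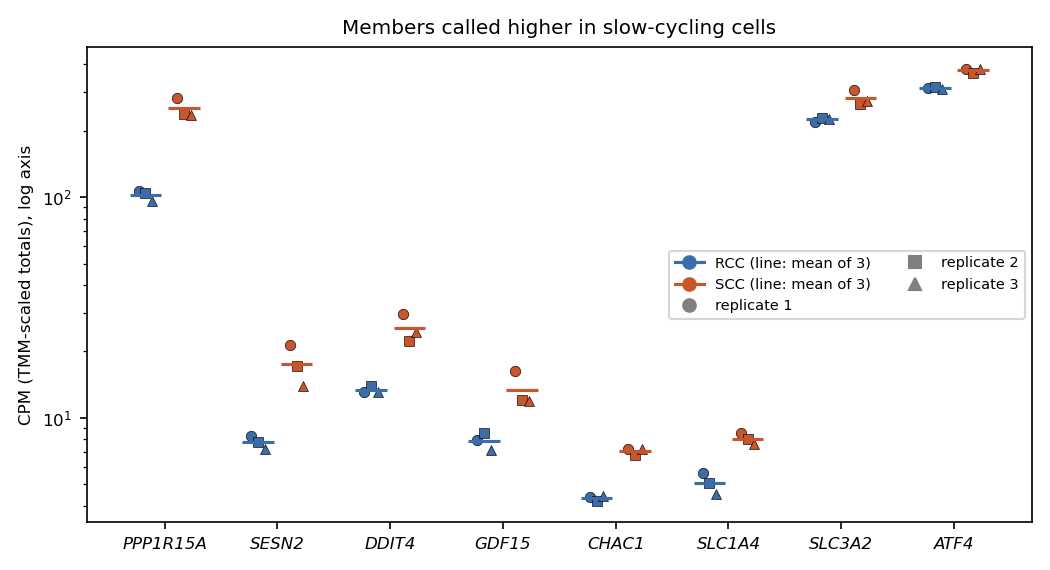
CPM on a log axis for the 8 called genes in each library, RCC in blue and SCC in orange, with a symbol per replicate and a line at the mean of 3 libraries. In each gene the SCC points lie above the RCC points, from 365 to 382 against 310.5 to 315 CPM for ATF4 to 237 to 281 against 95.8 to 106 CPM for PPP1R15A.

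Among the 3 secreted or surface proteins, GDF15 was called and VLDLR and STC2 were not. GDF15 (ENSG00000130513, chromosome 19, 18374731 to 18389176), a stress cytokine of the TGF-beta family, was at 16.3, 12.0 and 11.9 CPM in SCC replicates 1 to 3 and 7.96, 8.51 and 7.16 CPM in RCC replicates 1 to 3. The groups did not overlap, and SCC replicate 1 was the highest. The rise was 1.71-fold (0.77 ± 0.15 on the log2 scale, edgeR adjusted p 0.027). The call was lost without RCC replicates 1, 2 or 3 (edgeR adjusted p 0.13, 0.0851 and 0.146) and in all 3 limma fits. STC2, the glycoprotein stanniocalcin 2, was at 2.71 to 3.13 CPM in SCC and 1.96 to 2.04 in RCC, with no overlap (0.52 on the log2 scale, edgeR adjusted p 0.198). VLDLR, a lipoprotein receptor, was at 16.5 to 19.97 CPM in SCC and 16.1 to 19.1 in RCC, with overlapping groups and a log2 fold change of 0.02.

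The 6 amino acid transporters differed in direction: 2 were called higher, and SLC7A11 lay lower without a call. SLC1A4 (ENSG00000115902, chromosome 2, 64988477 to 65023865), which exchanges alanine, serine and cysteine, was at 8.53, 7.98 and 7.59 CPM in SCC replicates 1 to 3 and 5.61, 5.07 and 4.53 CPM in RCC replicates 1 to 3. The groups did not overlap, and the rise was 1.58-fold (0.66 ± 0.14 on the log2 scale, edgeR adjusted p 0.042). SLC3A2 (ENSG00000168003, chromosome 11, 62856102 to 62888875) encodes the heavy chain CD98hc, which carries light chains such as SLC7A5 and SLC7A11 to the membrane. It was at 305, 264 and 274 CPM in SCC replicates 1 to 3 and 219.9, 229 and 225 CPM in RCC replicates 1 to 3. Again the groups did not overlap, with a rise of 1.25-fold (0.32 ± 0.071 on the log2 scale, edgeR adjusted p 0.045). Both calls were lost without SCC replicate 3 and without each RCC replicate, with adjusted p of 0.0913 to 0.172 for SLC1A4 and 0.11 to 0.225 for SLC3A2. Both were lost in all 3 limma fits as well, and SLC3A2 also under upper-quartile scaling (0.0503).

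Neither light chain of the list was called higher. SLC7A11, the cystine importer xCT, was at 156, 182 and 176 CPM in SCC replicates 1 to 3 and 206, 203 and 190.0 CPM in RCC replicates 1 to 3. All SCC libraries lay below all RCC libraries, at an unadjusted p of 0.0131 and an adjusted p of 0.153 by edgeR (log2 fold change -0.22, 95% interval -0.39 to -0.06). SLC7A11 had the lowest GC content of the 39 genes, 35.9%, and correcting for GC content by an offset gave -0.04 on the log2 scale (adjusted p 0.656). The FPKM ratio of SLC3A2 to SLC7A11 was 3.65, 2.70 and 2.90 in SCC replicates 1 to 3 and 1.99, 2.10 and 2.21 in RCC replicates 1 to 3, without overlap (two-sided exact permutation p 0.1, the smallest possible; pair chosen after its values were seen). FPKM are not adjusted for GC content, which was 55.7% for SLC3A2, and with the GC offset the log2 fold change of SLC3A2 was 0.23. SLC7A5, the leucine importer LAT1, was at 512, 331 and 363 CPM in SCC replicates 1 to 3 and 346, 350.4 and 358 CPM in RCC replicates 1 to 3. Here SCC replicate 1 alone stood high, and without it the log2 fold change turned from 0.20 to -0.02 (adjusted p 0.416 and 0.899 by edgeR). The ratio of SLC3A2 to SLC7A5 overlapped between groups (exact permutation p 0.4). The glutamine transporter SLC1A5 was at 189.7 to 269 CPM in SCC and 173 to 188 in RCC, with no overlap, and was not called (adjusted p 0.223 by edgeR). Its log2 fold change of 0.28 was 0.10 without SCC replicate 1. SLC1A5 was called higher in 1 of 16 alternatives, edgeR on every gene with at least 1 count (adjusted p 0.0199). SLC38A2, a sodium-coupled importer of neutral amino acids, was at 435 to 507 CPM in SCC and 487 to 505 in RCC, with overlapping groups.

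**Figure D3:**
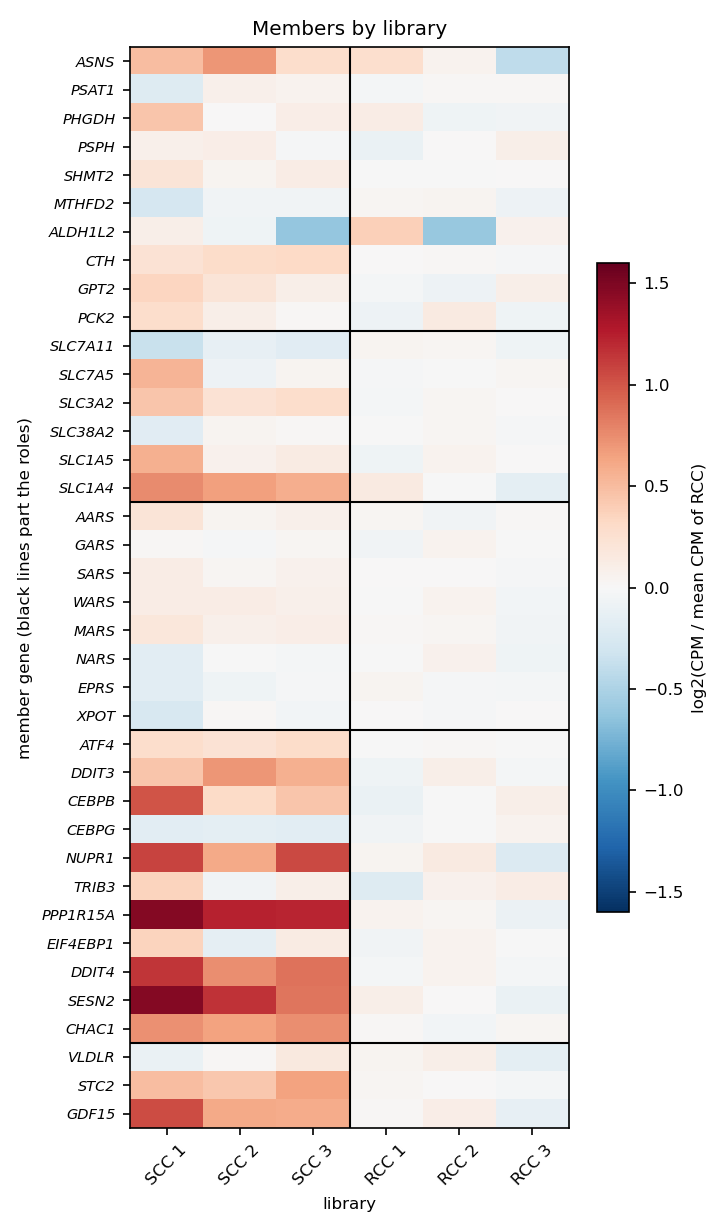
Log2 of each library's CPM over the mean CPM of RCC for the 38 tested genes, with libraries as columns and black lines between roles. The regulators PPP1R15A, SESN2 and DDIT4 are red in all 3 SCC columns; SLC7A5 is clearly red in SCC replicate 1 only, at 512 CPM against 331 and 363 in the other SCC libraries.

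In amino acid and one-carbon synthesis, 0 of 10 tested genes were called in either direction, and 0 were by DESeq2. Over all tested genes edgeR called 1.69% higher and 0.378% lower, and DESeq2 2.51% and 0.766%, so few calls would be due among 10 genes. Before adjustment 1 of them, GPT2, had a higher level at p under 0.05 by edgeR, near the 11.4% of all tested genes. The median log2 fold change of the 10 genes was 0.13. It was 0.07 when SCC replicate 1 was left out, and the GC offset gave 0.04. The genes with the smallest p were GPT2 and CTH. GPT2, a mitochondrial alanine aminotransferase, was at 56.2, 51.1 and 47.0 CPM in SCC replicates 1 to 3 and 43.4, 41.8 and 47.3 CPM in RCC replicates 1 to 3, and RCC replicate 3 lay above SCC replicate 3 (0.22 on the log2 scale, edgeR adjusted p 0.213). CTH, which makes cysteine from cystathionine, was at 6.64, 6.95 and 7.07 CPM in SCC replicates 1 to 3 and 5.69, 5.73 and 5.59 CPM in RCC replicates 1 to 3, with no overlap (0.28 on the log2 scale, edgeR adjusted p 0.270). The serine pathway enzymes PHGDH, PSAT1 and PSPH had log2 fold changes of 0.20, -0.02 and 0.06, and each had overlapping groups. PHGDH was at 0.06 without SCC replicate 1. The mitochondrial folate enzymes SHMT2 and MTHFD2 were at 0.12 and -0.13, SHMT2 without overlap and MTHFD2 with it, and SHMT2 was at 0.0025 with the GC offset. PCK2, the mitochondrial PEP carboxykinase, was at 0.14.

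For the serine and folate enzymes the 95% intervals were narrow, the highest bound of the 5 being 0.47 (PHGDH) and the lowest -0.30 (MTHFD2). Of these 5, MTHFD2 shares 27.2% of its exon bases with SLC4A5 on the opposite strand, and SHMT2 8.83% with AC137834.2. SLC4A5 was at 0.11 to 0.41 CPM over all libraries. Strand use in counting is not given, so the overlaps leave the levels of both genes less certain than the intervals show. The low genes could not be judged as closely as these 5. ASNS, which makes asparagine and is a standard readout of ATF4, had 20 to 56 counts per library and was at 2.08, 2.40 and 1.80 CPM in SCC replicates 1 to 3 and 1.78, 1.53 and 1.12 CPM in RCC replicates 1 to 3. Its groups did not overlap, and its 95% interval ran from -0.10 to 1.07. ASNS shares 44.6% of its exon bases with the transcript AC079781.5 on the same strand, which was itself at 5.07 to 5.78 CPM in SCC and 3.96 to 4.25 in RCC, so the level of ASNS is uncertain. ALDH1L2, a mitochondrial folate enzyme, had 11 to 24 counts per library and a 95% interval of -1.01 to 0.69. CBS, the enzyme before CTH in cysteine synthesis, was the 1 gene that failed the filter, with 2, 1 and 4 counts in SCC replicates 1 to 3 and 0 in each RCC library, and is not compared.

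The genes of tRNA charging and export had the smallest fitted differences. Of the 8 genes 0 were called (also 0 by DESeq2, and 0 by edgeR before adjustment). Over all tested genes edgeR called 1.69% higher and 0.378% lower, and 11.4% and 8.27% before adjustment. The shares by DESeq2 were 2.51% and 0.766%. Log2 fold changes of the 8 genes ran from -0.09 for XPOT, the tRNA exportin, to 0.12 for MARS. All 95% intervals lay between -0.26 and 0.27, or from 0.835 to 1.202 times the RCC level. MARS, the methionine enzyme, was at 169, 159 and 161 CPM in SCC replicates 1 to 3 and 152, 153 and 144 CPM in RCC replicates 1 to 3, and AARS, the alanine enzyme, at 253, 225 and 231 CPM in SCC replicates 1 to 3 and 224, 210.4 and 222 CPM in RCC replicates 1 to 3. In both the groups did not overlap (edgeR adjusted p 0.311 and 0.384). The same was true of SARS and WARS, while GARS, NARS, EPRS and XPOT overlapped. Thus 4 of the 8 genes lay higher in all SCC libraries than in all RCC libraries, against 14.4% of all tested genes. The sign of 2 of the 8 log2 fold changes turned in another fit, GARS to -0.0041 under upper-quartile scaling and XPOT to 0.01 with a GC offset. Summed over the 8 genes, the level was 1515 to 1537 CPM in SCC and 1486 to 1514 CPM in RCC. The lowest SCC sum, 1515.3 CPM, lay just above the highest RCC sum, 1514.2 CPM. TMM scaling factors ran from 0.9704 to 1.0146 over the libraries, and the sums were not taken under another scaling. The 11 regulators summed to 815 to 940.2 CPM in SCC and 596 to 611 CPM in RCC.

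The rest of the pathway was read from lists chosen by function. Of 21 genes for eIF2 kinases, eIF2 and eIF2B subunits and their regulators, 0 were called, and at edgeR's unadjusted p below 0.05 there were 0 with a higher level and 3 with a lower one (EIF2AK2, EIF2S1 and PPP1CB), against the 11.4% and 8.27% of all tested genes. The median log2 fold change of the 21 genes was -0.06. In EIF2AK2, EIF2S1 and PPP1CB the log2 fold changes were -0.20, -0.20 and -0.21. All SCC libraries lay below all RCC libraries in these 3 genes, and SCC replicate 1 was the lowest. Their GC content was 39.6%, 39.1% and 37.96%, against a median of 48.8% for all tested genes. Over the 16 alternatives their log2 fold changes ran up to -0.08, -0.08 and -0.06. Whether GC content accounts for these lower levels was not tested. The 4 kinases HRI, PKR, PERK and GCN2, encoded by EIF2AK1 to EIF2AK4, had log2 fold changes of 0.03, -0.20, 0.13 and -0.01. Among other ATF4 or CHOP targets 25 genes were tested, with a median of 0.20. At edgeR's unadjusted p below 0.05, 11 of them had a higher level and 0 a lower one. By edgeR's adjusted p 5 were called higher and 0 lower, against 1.69% and 0.378% of all tested genes. These were ATF3, a feedback factor that is also an immediate early gene (21.6 to 24.8 CPM in SCC and 2.63 to 4.09 in RCC), NDRG1 (126 to 132 CPM in SCC and 91.7 to 95.8 in RCC), HERPUD1, a factor of ER-associated degradation (71.8 to 73.6 CPM in SCC and 51.9 to 54.8 in RCC), VEGFA (123 to 143 CPM in SCC and 95.5 to 102 in RCC) and MAP1LC3B, the autophagosome protein LC3B (87.1 to 98.0 CPM in SCC and 70.1 to 76.0 in RCC). ATF3 was called in all 16 alternatives, with the highest log2 fold change of this list at 2.81. NDRG1 lost its call when RCC replicate 3 was left out (edgeR adjusted p 0.0555). HERPUD1 lost its call without RCC replicates 1, 2 or 3 (0.0981, 0.0858 and 0.0692). VEGFA and MAP1LC3B lost theirs in all 3 limma fits, and without SCC replicate 3 or any RCC replicate (0.071 to 0.171 and 0.13 to 0.218). MAP1LC3B was also not called without SCC replicate 2 (0.0557).

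The 13 cytosolic tRNA synthetases outside the 39 genes gave 0 calls and a median log2 fold change of -0.03, and the 17 mitochondrial ones, which serve another genome's translation, gave 0 calls and a median of -0.10. The unadjusted p of edgeR was below 0.05 for 1 gene with a higher and 2 with a lower level among the former, and for 0 among the latter. Over all tested genes 1.69% were called higher and 0.378% lower, and 11.4% and 8.27% had such an unadjusted p. The values for the 8 listed genes of tRNA charging and export (median 0.04) and for these 2 lists ran from -0.25 to 0.20 in all, and the difference between the lists was not tested.

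**Figure D4:**
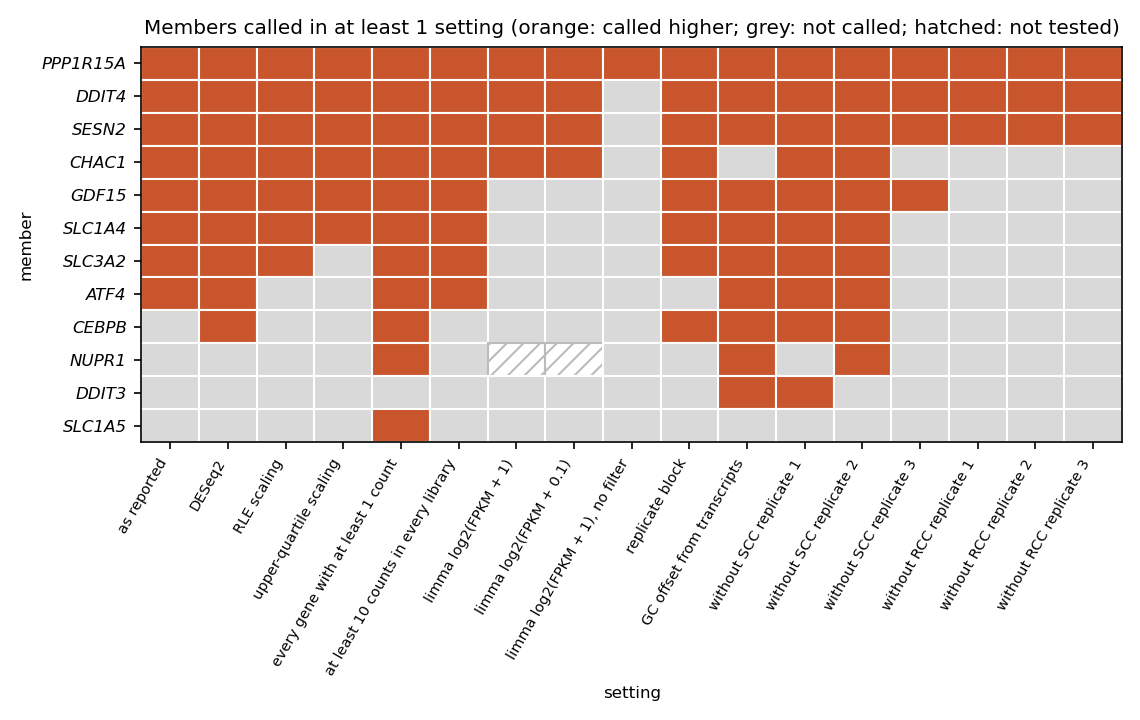
Calls for the 12 genes called in at least 1 of 17 settings (the reported test and 16 alternatives), with genes as rows and settings as columns; orange is called higher, grey not called, hatched not tested. PPP1R15A is orange throughout, DDIT4 and SESN2 in all but limma on log2(FPKM + 1) without a filter, and 4 of the 8 genes lose their call without SCC replicate 3 and 5 without any one RCC replicate.

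Some values of the libraries moved with these results. Immediate early genes respond within minutes to handling and to growth signals. Of 10 such genes, 8 were called higher in SCC by the same test, against 1.69% of all tested genes. ATF3, counted above among the other ATF4 or CHOP targets, was also 1 of these 8. The 10 genes summed to 1060.3 to 1360.2 CPM in SCC and 425 to 456 CPM in RCC. Their part in the rise of PPP1R15A and the other regulators was not tested. Of 38 tested genes, 19 had their highest value and 7 their lowest in SCC replicate 1, the library that stood apart by GC content. The same was not counted over all tested genes, so these counts do not set the 38 genes apart. The median GC content was 59.5% for the regulators and 48.6% for the genes of tRNA charging and export. Without SCC replicate 1 all 8 called genes were called, joined by CEBPB and DDIT3. Fitting with a GC offset, an alternative added once the data had been seen, 7 of the 8 were called, without CHAC1, and CEBPB, DDIT3 and NUPR1 were added; over all genes the calls then split 548 higher to 295 lower, against 268 to 60. Mitochondrial genes took 4.45% to 4.75% of counts in SCC and 3.77% to 3.95% in RCC, and their part in the results was not tested.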

How the data were processed

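Gene counts and FPKM values (fragments scaled by gene length and library size) for 3 SCC and 3 RCC libraries were used as deposited by the authors. HISAT2 2.0.5 and featureCounts 1.5.0-p3 are named in the submitters' processing notes; strand use in counting is not given in the sources used here. Deposited FPKM equalled the count divided by gene length and by a library total, which was the summed count times 0.984 to 1.02. Positions and exon overlaps come from GENCODE 29 (GRCh38), and promoters from RefSeq.

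Counts were tested with edgeR 4.0.16 (R 4.3.3): filterByExpr with a minimum count of 10, TMM scaling, quasi-likelihood F test, and Benjamini-Hochberg adjustment over 15881 genes. CPM are counts relative to TMM-scaled library totals. DESeq2 1.42.0, limma 3.58.1 on log2(FPKM + 1 or 0.1), other scalings and filters, a replicate block, a GC offset and leaving out each library were alternatives. The edgeR script was tested on simulated data. Values in every library are given for ATF4, the called members and, in roles without a call, the 2 members with the smallest p; in pathway lists up to 4 called genes by smallest p are named. MAP1LC3B, the eIF2 kinases, EIF2S1, PPP1CB and PPP1R15B, and the values by library of DDIT3, CEBPB, SLC7A11, SLC7A5 and ASNS, were chosen after their values were seen. The members and lists were chosen with earlier results of these data known. Same-numbered SCC and RCC libraries deviated from their group means with correlations of -0.08 to 0.02, so numbers were not taken to pair them. Libraries of a group differed by more than sampling noise (chi-square over degrees of freedom 3.31 to 28.0).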

Additional observations from a re-analysis of the deposited data

How the results depend on the processing

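PPP1R15A was called in all 16 alternatives, and 0 of the 39 genes were called lower in any of them. Of the values of the 38 tested genes under an alternative, 530 kept direction and side of the threshold, 39 lost and 12 gained a call, and 19 turned sign, all 19 in genes that were not called. Of those of the 5 called pathway genes, 61 kept both and 19 lost the call. With the replicate number as a block, 8 of the 39 genes were called, with ATF4 lost and CEBPB gained, and over all genes 350 were higher and 106 lower. The block changed no other call among the 39 genes. DESeq2 called 120 of all genes lower. With a minimum of 1 count in place of the filter, 995 genes were higher and 315 lower. The limma fits gave 130 higher and 36 lower on log2(FPKM + 1), 117 and 34 on log2(FPKM + 0.1), and 48 and 1 on log2(FPKM + 1) with no filter, with 4, 4 and 1 of the 39 genes called higher; the 4 were PPP1R15A, SESN2, DDIT4 and CHAC1, and the 1 was PPP1R15A. The GC offset gave 548 higher and 295 lower. Without 1 library, calls over all genes ran from 99 higher, when RCC replicate 1 was left out, to 642, when SCC replicate 1 was, with 8 and 343 lower in those fits; of the 39 genes, 3 to 10 were called. Medians of log2 fold changes over the alternatives ran from 0.04 to 0.15 for synthesis, 0.07 to 0.33 for transporters, 0.02 to 0.06 for tRNA charging and export, 0.45 to 0.72 for regulators and 0.15 to 0.55 for secreted and surface proteins. The GC offset turned the log2 fold changes of PSAT1 to 0.050, PCK2 to -0.037, SLC38A2 to 0.092, XPOT to 0.011, TRIB3 to -0.063 and EIF4EBP1 to -0.099, and upper-quartile scaling turned GARS to -0.0041. Without 1 library, log2 fold changes changed sign for PSAT1 (-0.083 to 0.072), PSPH (-0.0068 to 0.098), ALDH1L2 (-0.40 to 0.076), SLC7A5 (-0.016 to 0.30), SLC38A2 (-0.094 to 0.027), GARS (-0.023 to 0.041), EIF4EBP1 (-0.00070 to 0.24) and VLDLR (-0.056 to 0.091). The cause was not tested. A planned GC offset from the genome was not run, and transcripts were used in its place. Depth limits CBS, ALDH1L2, ASNS, NUPR1 and STC2 most, with under 100 counts in every library.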
